A study of Arabidopsis thaliana with 18 samples.

Results

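HSFA2 (AT2G26150) encodes a heat stress transcription factor of Arabidopsis thaliana. It was 1 of 11437 genes analysed, taken as the line of the deposited table that carries this locus name, and it was chosen by its measured increase between untreated and DMSO seedlings, one of the largest in the table. Its levels at dawn are therefore given as a description, with no test. Whole Col-0 seedlings aged 14 days, raised on 1/2MS medium with 12 h of light and 12 h of dark, gave 18 RNA-seq libraries in 6 groups of 3. The untreated group (NT) was collected at zeitgeber time 0 (ZT 0 h), the moment of lights on. The other 5 groups were moved to new medium and collected at ZT 2 h. The medium held the solvent DMSO (0.1%), DPI (10 µM), pentamidine isethionate (PI, 25 µM), AEG3482 (AEG, 12.5 µM) or Tyrphostin AG879 (TYR, 2 µM). By its title the series used these chemicals to modify sugar signalling. Light, elapsed time, the change of medium and its solvent or chemical all differ between NT and the ZT 2 groups. Their parts in any difference at dawn therefore cannot be told apart. No label says whether the 3 libraries of a group came from separate cultures, so the p-values measure the spread between these libraries, which may be technical.

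Heat stress factors bind heat shock elements, runs of alternating GAA and TTC units in the promoters of chaperone genes. In Arabidopsis the factors of the HSFA1 class start the response to heat, and HSFA2 is one of the genes they switch on. HSFA2 protein then keeps small heat shock protein, HSP70 and other chaperone genes active and is known for its role in lasting tolerance to repeated heat. HSFA2 transcript is also known to rise in strong light and with hydrogen peroxide. No heat treatment was part of this study.

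In RefSeq annotation TAIR10.1 HSFA2 lies on the plus strand of chromosome 2, from 11135624 to 11137792, with 4 annotated transcripts. A short exon of 31 bases is present in 2 of these transcripts, and the deposited values are per gene, so the forms were not separated. No annotated gene overlaps HSFA2. The neighbour ftsh4 (AT2G26140), which encodes a mitochondrial protease, is read from the other strand, and only 158 bases separate the starts of both genes. That interval is shown because it holds every heat shock element unit named here for HSFA2, read toward HSFA2 at chr2:11135466-11135623 with the motif matches in capitals.
HSFA2 upstream interval: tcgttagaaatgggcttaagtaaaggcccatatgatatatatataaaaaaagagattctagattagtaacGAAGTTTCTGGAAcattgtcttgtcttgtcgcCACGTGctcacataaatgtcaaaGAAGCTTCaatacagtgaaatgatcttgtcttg

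The interval held a heat shock element of 3 units, 88 to 76 bases before the annotated start of HSFA2, and a pair of units 33 to 26 bases before it. Between them lay a G-box, the sequence CACGTG, 56 to 51 bases before the start. A match of 3 units (GAANNTTCNNGAA or TTCNNGAANNTTC, each the reverse complement of the other, so that both strands were covered) was present in 106 of 27444 windows of 250 bases before protein-coding genes, or 0.386%. A pair of units (GAANNTTC or TTCNNGAA, each of which reads the same on both strands, and which lie within the longer match) was present in 16.1% of windows, and the G-box, which also reads the same on both strands, in 6.49%. A match describes letters in the window and does not show that a factor binds there.

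Among the heat stress factor and heat response genes with values in the table, 2 others held the element of 3 units, HSFA7B and HSP17.4. HSFA7B encodes another heat-inducible factor and HSP17.4 a small chaperone. The matches are shown in capitals with their flanks for comparison with HSFA2, at chr2:11135530-11135554 for HSFA2, chr3:23399073-23399097 on the plus strand for HSFA7B, and chr3:16984948-16984972 and chr3:16984868-16984891 on the minus strand for HSP17.4.
HSFA2 site: agtaacGAAGTTTCTGGAAcattgt
HSFA7B site: tataagTTCCGGAACTTTCtaagaa
HSP17.4 site, upstream: aacataGAAGCTTCTTGAAgccacc
HSP17.4 site, downstream: aaacctGAAATTTCAAGAAacttg
At ZT 2 the deposited TPM, a level per length, ran from 3.21 to 16.4 for HSFA2 and from 0 to 4.32 for HSP17.4, and was at most 0.22 for HSFA7B, so these 3 genes did not share a level.

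No HSFA2 read was counted in any of the 3 NT libraries. With DMSO the estimated counts were 35, 72 and 79. With DPI they were 51, 109 and 23, and with PI 42, 34 and 73. Every ZT 2 library with these media thus lay above every NT library. With AEG the counts were 113, 53 and 36, and with TYR 72, 57 and 21. The lowest of the 15 ZT 2 libraries, TYR replicate 3, still held 21 counts, and the highest, AEG replicate 1, held 113. All 18 HSFA2 values were whole numbers, as for genes that share no reads with another feature.

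CPM scales the counts of each library by its total and by a normalization factor (TMM). HSFA2 reached 19.2 ± 7.17 CPM with DMSO, 18.5 ± 13 CPM with DPI and 15.9 ± 6.5 CPM with PI (SD, n = 3 each). It reached 21.4 ± 12.3 CPM with AEG and 15.3 ± 7.71 CPM with TYR (SD, n = 3 each). A floor of 3 counts per NT library corresponds to 0.907 CPM on average, which covers counting error only. Against that floor the mean was at least 21.2-fold higher with DMSO, at least 20.4-fold with DPI, and between at least 16.9-fold (TYR) and at least 23.6-fold (AEG) with the rest. The lowest ZT 2 library was at least 7.32-fold above the floor. In whole seedlings, fewer cells with the transcript and less transcript per cell cannot be told apart.

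**Figure D1:**
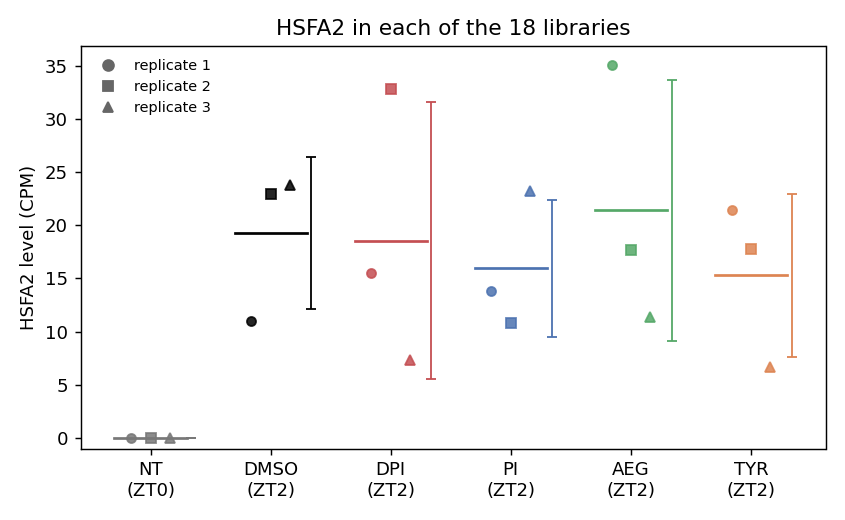
HSFA2 level in CPM (y axis) in each library, by group (x axis). Points are libraries with the marker giving the replicate number, horizontal lines are group means and bars the SD (n = 3). The NT libraries sit at 0 and the 15 ZT 2 libraries between 6.64 and 35.1 CPM.

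Libraries of the same group differed widely. The highest library exceeded the lowest 2.17-fold with DMSO, 4.44-fold with DPI, 2.16-fold with PI, 3.08-fold with AEG and 3.23-fold with TYR. Over all 15 ZT 2 libraries the level ran from 6.64 to 35.1 CPM with a median of 17.7, a 5.29-fold range. The lowest and the highest library of DPI enclosed all the libraries of DMSO and PI. The fitted biological coefficient of variation of HSFA2 was 0.42, against a median of 0.153 over the 9006 genes tested.

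Genes with no reads at ZT 0 and reads in every ZT 2 library were uncommon among the genes tested. Of the genes tested, 19 had 0 counts in every NT library. Among these HSFA2 had the highest minimum at ZT 2, 21 counts. The next was ATGA2OX1 (AT1G78440), which encodes a gibberellin 2-beta-dioxygenase, with a lowest count of 4 and a highest of 29. With the limit relaxed to at most 3 counts over the NT libraries there were 61 genes, and HSFA2 ranked 6th by mean DMSO level. Next above it were the ribonuclease gene RNS1 (31.0 ± 10.7 CPM), the AP2/ERF factor gene ABR1 (29.7 ± 9.71 CPM) and the lectin gene JAL23 (19.3 ± 10.2 CPM). Next below were the receptor kinase gene FRK1 (17.8 ± 7.83 CPM), the Kunitz-type inhibitor gene AT1G73325 (15.4 ± 16.1 CPM) and the dehydrogenase gene AT5G16960 (14.1 ± 10.6 CPM; all SD, n = 3). JAL23, HSFA2 and FRK1 lay closer together than their SDs. These values order genes by reads, which also depend on length. A gene at 0 in NT passed the filter only through ZT 2 libraries. HSFA2 was chosen by its increase from NT to DMSO, so its places in these orders follow in part from that choice.

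The divergent neighbour ftsh4, included for its position and not by the rule for named genes, was already present in NT at ZT 0. It held 569 to 680 counts in NT and 875 to 1260 counts at ZT 2, from 192 ± 14.7 CPM in NT to 313 ± 15.9 CPM with DMSO (SD, n = 3). Its log2 fold change was 0.70 (SE 0.12), with a quasi-likelihood adjusted p of 0.000158 in edgeR. The next gene downstream was not analysed here.

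Whether a chemical altered the HSFA2 level at ZT 2 was asked first against DMSO, where the DMSO libraries also entered the choice of HSFA2. None of the 4 chemicals gave a difference beyond the spread between libraries. HSFA2 differed from DMSO by -0.05 on the log2 scale with DPI (SE 0.50, 95% interval -1.11 to 1.01, edgeR adjusted p = 1). PI gave a difference of -0.27 (SE 0.51, interval -1.35 to 0.81, edgeR adjusted p = 0.999) and AEG one of 0.16 (SE 0.50, interval -0.90 to 1.21, edgeR adjusted p = 1). For TYR it was -0.33 (SE 0.51, interval -1.40 to 0.75, edgeR adjusted p = 0.997). As folds, the intervals allow levels from 0.378 times DMSO, the lower bound with TYR, to 2.31 times DMSO, the upper bound with AEG. The unadjusted p-values of this edgeR fit were 0.926, 0.603, 0.758 and 0.532 for DPI, PI, AEG and TYR.

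The 12 libraries with a chemical did not enter the choice of HSFA2, and their 6 pairs were compared at the 1 dose and time used for each, so the doses differ. The largest difference was between AEG and TYR, 0.48 on the log2 scale (SE 0.51, 95% interval -0.59 to 1.55), with an unadjusted p of 0.356 and an adjusted p of 0.959 in edgeR. The smallest was 0.06 between PI and TYR (interval -1.04 to 1.15). PI against AEG gave -0.43 (interval -1.50 to 0.64). DPI differed by 0.22 from PI (interval as a fold 0.553 to 2.47), by -0.20 from AEG (interval -1.26 to 0.85) and by 0.28 from TYR (interval -0.80 to 1.36). The edgeR adjusted p of the 6 pairs was at least 0.925. Of these 10 differences, 9 changed sign when 1 library was left out. PI against DMSO kept its sign. The test thus gives no order of the chemicals, and it does not show that they left HSFA2 alike.

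**Figure D2:**
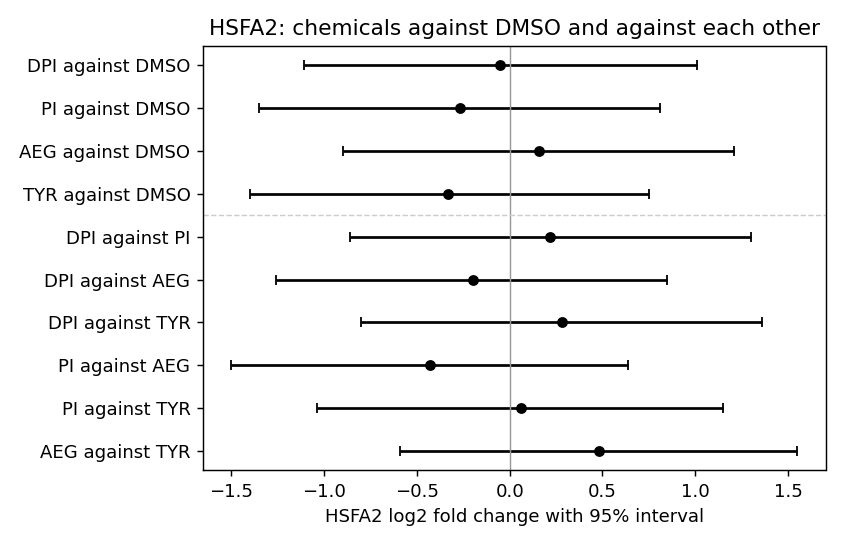
HSFA2 log2 fold change (x axis) with its 95% interval for each chemical against DMSO, above the dashed line, and for the 6 pairs of chemicals below it. All 10 intervals span 0.

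In a permutation test of the group labels on log2 CPM, group accounted for 6.72% of the variance of HSFA2 over the 15 ZT 2 libraries (p = 0.941, 100000 permutations). Over the 12 libraries with a chemical it accounted for 6.12% (permutation p = 0.903).

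The ZT 2 libraries also fell apart in a way the groups do not explain. The superoxide dismutase gene FSD1 held 3041 to 5101 counts in 5 of them (DMSO, DPI, PI and AEG replicate 1 and TYR replicate 3) and 0 to 15 in the other 10, against 5492 to 5857 in NT. HSFA2 ranged from 6.64 to 35.1 CPM in those 5 (median 13.8) and from 7.37 to 32.8 CPM in the other 10 (median 19.6). Both sets held high and low HSFA2 libraries, and every library of either set lay above NT. Of 5 shoot genes and 6 root genes on marker lists, 2 and 4 were in the table. The shoot genes LHCA4 and PSBO2 summed to 4233 to 5315 TPM in NT and 6528 to 8542 TPM at ZT 2, without overlap. LHCA4 was called higher in all 5 comparisons with NT (with DMSO log2 fold change 1.06, SE 0.14, edgeR adjusted p = 6.51e-06). PSBO2 did not share this rise. It was called in none of the 5 (with DMSO -0.08, SE 0.14, edgeR adjusted p = 0.668), and its NT and ZT 2 libraries overlapped. The root genes summed to 1004 to 1522 TPM in NT and 609 to 1232 TPM at ZT 2, nearly all from PYK10. TIP2;3 had 2 to 21 counts in NT and 0 in each AEG library (edgeR adjusted p = 0.00925 for AEG against NT), and PRP3 and EXPA7 had at most 9 counts in any library. The part of these marker levels in the dawn values of HSFA2 and the gene lists was not tested.

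Arabidopsis has 21 heat stress factor genes on the fixed list. Besides HSFA2, 7 were in the table and 5 passed the filter for testing. The others were not analysed here. HSFB2B, a class B factor known as a repressor, was higher at ZT 2 with DMSO than in NT (log2 fold change 0.88, SE 0.24, edgeR adjusted p = 0.00672). HSFA5, known as a repressor of HSFA4 activity, was lower (-1.41, SE 0.21, adjusted p = 3.08e-05), as was HSFA1B of the HSFA1 class (-0.93, SE 0.28, adjusted p = 0.0146). HSFA1E (-0.51, SE 0.35) and HSFA4A, linked to oxidative stress (0.54, SE 0.37), did not pass (edgeR adjusted p = 0.274 and 0.269). Without NT replicate 1 or DMSO replicate 2 the call of HSFA1B was lost (edgeR adjusted p = 0.0712 and 0.0568). Over all genes 19.6% were called higher and 16% lower in this comparison, and with 5 genes tested no share is read from these counts.

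Deposited TPM, which corrects for gene length, allows the levels of the factors to be set side by side. In NT the order of mean TPM was HSFA5 (14.0 ± 2.15), HSFA1B (7.97 ± 1.13), HSFB2B (4.74), HSFA1E (3.63) and HSFA4A (3.28), with HSFA2 listed at 0. At ZT 2 the order of median TPM was HSFB2B (8.76), HSFA2 (7.96), HSFA5 (6.27), HSFA1B (3.95), HSFA4A (3.83) and HSFA1E (2.41). HSFA2 thus went from the bottom of the measured factors, where HSFA7B and HSFB3 also stood at 0, to a place beside the most abundant of them. This move follows in part from the choice of HSFA2 by its increase from NT to DMSO. The range of HSFA2 over the 15 ZT 2 libraries, 3.21 to 16.4 TPM, covered the range of HSFB2B, 7.06 to 13.8 TPM, and that of HSFA5, 4.65 to 11.1 TPM. Neighbours in this order lay within their spread, except that HSFA5 (6.81 ± 1.88 TPM) stood above HSFA1B (4.02 ± 1.08 TPM; SD, n = 15) in each of the 15 libraries. HSFA7B had 1 count in all, and HSFB3 at most 5 counts in a library with none in NT.

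**Figure D3:**
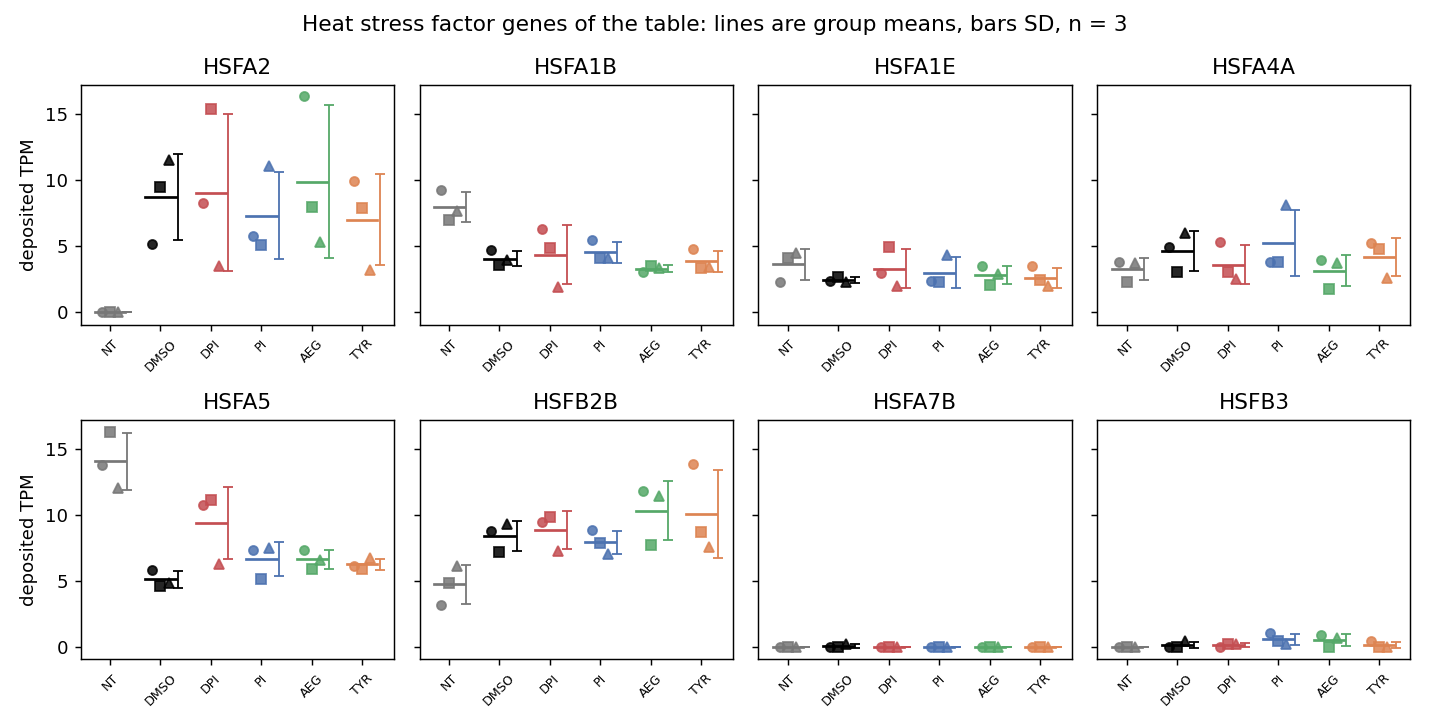
Deposited TPM (y axis) of the 8 heat stress factor genes of the table by group (x axis). Points are libraries, lines group means and bars the SD (n = 3). HSFA2 is at 0 in NT and between 3.21 and 16.4 TPM at ZT 2, where HSFA5 and HSFA1B are below their NT values.

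The other 4 ZT 2 groups, set against the same NT libraries, gave 1 factor higher and 2 lower with DPI, AEG and TYR, and 1 higher and 1 lower with PI. Over all genes 20.1% to 21.7% were called higher and 17.3% to 18.8% lower in these comparisons, so 1 of 5 higher is near the background. HSFB2B was higher in each, by 0.86 to 1.21 on the log2 scale, and HSFA5 lower in each, by -0.59 (DPI) to -1.12 (TYR). With DPI the number of factors called fell from 3 to 1 without NT replicate 1 or without DPI replicate 3. HSFA5 was the 1 factor with an unadjusted p under 0.05 for a chemical against DMSO, 0.82 higher with DPI (unadjusted p = 0.00114, edgeR adjusted p = 0.99). It was 1 of 5 factors, each tested with 4 chemicals, and 3.59% of all genes passed that level with DPI. HSFA5 counts were 84, 95 and 52 with DPI and 49, 39 and 41 with DMSO. These groups do not overlap, but how many genes show that was not counted.

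Known or proposed targets of heat stress factors were examined as a list of 30 heat response genes, of which 15 were in the table and 13 were tested. With DMSO at ZT 2, 10 of the 13 were higher than in NT and 0 lower at an edgeR adjusted p under 0.05, against 19.6% and 16% of all genes. The median log2 fold change was 1.98, against 0.02 over all genes. HSP17.6II, AT5G51440, AT1G07400 and GolS2 had at most 9 counts in any NT library and passed the filter only through ZT 2 libraries. In comparisons with NT they could therefore hardly be called lower, which limits what the counts in each direction show. HSP90.1 (9 to 23 counts in NT) and HSP18.2 (5 to 11 counts in NT) also needed ZT 2 libraries to pass the filter. The same limit holds in part for them. Genes for chaperones of the cytosol, chloroplast and mitochondrion were among those that rose. HSP17.4 (at most 12 counts) and HSP21 (at most 1 count) were too low to test.

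The largest increases were in small and large chaperone genes. HSP70 (AT3G12580), a cytosolic chaperone, had 19, 21 and 23 counts in NT and 693, 1858 and 960 with DMSO. In CPM it went from 6.34 ± 0.477 to 366 ± 199 (SD, n = 3), and it rose by 5.84 in log2 (SE 0.35, edgeR adjusted p = 3.97e-10). HSP90.1, the heat-inducible cytosolic HSP90, had 23, 9 and 14 counts in NT and 203, 524 and 350 with DMSO. It rose by 4.58 (SE 0.39, edgeR adjusted p = 2.73e-08). For both genes every DMSO library lay far above every NT library, and DMSO replicate 1, the lowest of the group for HSFA2, was also the lowest for both.

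AT5G51440, annotated as an HSP20-like chaperone, rose by 4.94 (SE 0.68, edgeR adjusted p = 1.27e-05) from 2, 0 and 2 counts to 24, 38 and 69. AT1G07400, with the same annotation, rose by 3.73 (SE 0.64, edgeR adjusted p = 0.000136) from 5, 3 and 3 counts to 30, 44 and 73. HSP17.6II, a class II small heat shock protein, resembled HSFA2 in having 0 counts in each NT library. It had 1, 16 and 17 counts with DMSO (edgeR adjusted p = 0.0109), and its mean was at least 3.87-fold higher than the floor of 3 counts. Unlike HSFA2 it came down to 1 or 2 counts in some ZT 2 libraries.

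Smaller increases were seen for regulators and disaggregases. MBF1C, a coactivator needed for thermotolerance, rose by 1.98 (SE 0.31, adjusted p = 4.81e-05 in edgeR), and ROF1, a peptidyl-prolyl isomerase known to bind HSP90.1 and to modulate HSFA2, by 1.57 (SE 0.13, adjusted p = 2.73e-08). The mitochondrial CLPB4 rose by 1.41 (SE 0.16, adjusted p = 9.37e-07) and the chloroplast CLPB3 by 0.95 (SE 0.20, adjusted p = 0.000914). GolS2, a galactinol synthase gene, passed with 2.63 (SE 0.98, adjusted p = 0.0422), but this rested on DMSO replicate 2, which held 79 counts against 7 and 11 in the other two. Without that library the change was 0.77 (edgeR adjusted p = 0.614), and leaving out any 1 NT library also ended the call (adjusted p = 0.0598 to 0.144). HSP18.2 (0.60), HSA32 (-0.54) and Hsp70b (-0.56) did not pass with DMSO (edgeR adjusted p = 0.343, 0.119 and 0.107). Hsp70b passed as lower without DMSO replicate 3 (-0.88, adjusted p = 0.0202).

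Against the same NT libraries, the other media gave 10 heat response genes higher and 2 lower with DPI, 9 and 1 with PI, 9 and 1 with AEG, and 8 and 1 with TYR. The share of all genes called higher was 21.7%, 20.2%, 21.2% and 20.1% in that order, and the share called lower 18.4%, 17.8%, 18.8% and 17.3%. The median log2 fold changes of the list were 1.88, 1.92, 1.82 and 1.58, against 0.01, -0.00, 0.01 and 0.02 over all genes. AT5G51440, HSP70, HSP90.1, ROF1, MBF1C, CLPB3 and CLPB4, 7 genes in all, were called higher in each of the 5 comparisons, which share the NT libraries. HSA32, known to prolong acquired thermotolerance, was the gene called lower with PI (-0.70, adjusted p = 0.0441), AEG (-0.72, 0.0374) and TYR (-0.94, 0.00946), and was lower with DPI (-1.05, 0.00449) together with Hsp70b (-0.83, 0.0186; all edgeR adjusted p). For PI the call was lost without NT replicate 2 or 3, or PI replicate 1 or 3, and for AEG without NT replicate 2 or 3 or any AEG library, and with DESeq2 for both. For TYR it was lost without NT replicate 2 or TYR replicate 2, and for DPI leaving out NT replicate 1, DPI replicate 1 or DPI replicate 3 left 1 gene lower in place of 2. In the 10 ZT 2 libraries low in FSD1, chosen after the data were seen, the counts of genes called higher were 10, 10, 9, 9 and 8 for DMSO, DPI, PI, AEG and TYR.

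**Figure D4:**
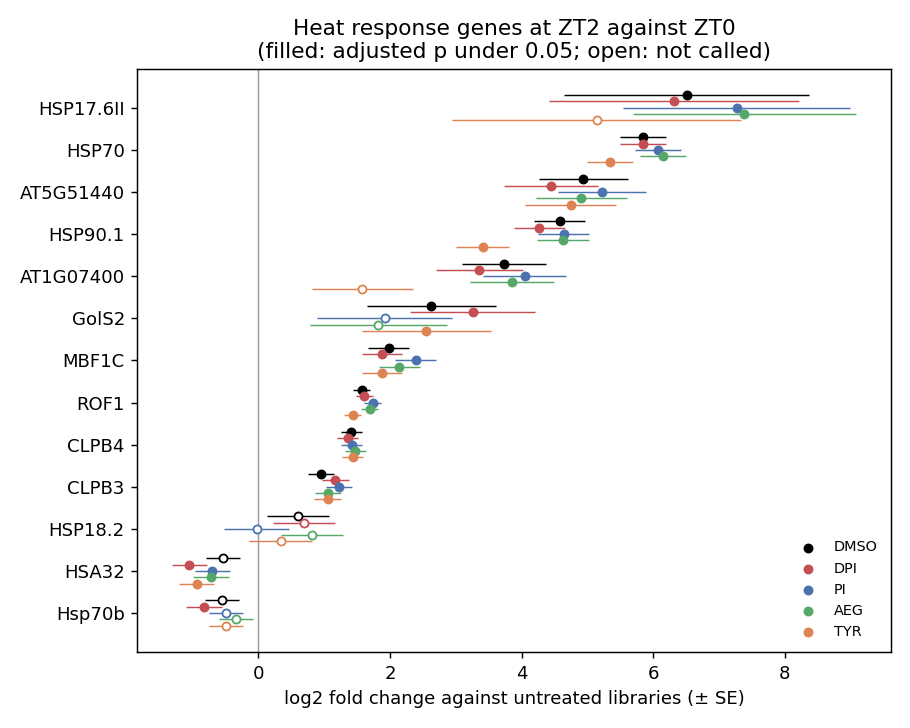
Log2 fold change against NT (x axis, bars are the SE) of the 13 heat response genes tested (y axis), 1 colour for each ZT 2 group. Filled points were called at an adjusted p under 0.05. AT1G07400 and HSP17.6II are open for TYR alone, and the TYR point of HSP90.1, at 3.41, lies lowest of its 5.

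Of the 10 genes called higher with DMSO, none held the 3-unit heat shock element found before HSFA2 in its window of 250 bases, and 3 held a pair of units (AT5G51440, GolS2 and CLPB3), against 0.386% and 16.1% of all windows. Over the 30 genes of the list, in the table or not, 3 held the element and 14 a pair. Only exact matches in these windows were sought, so altered or more distant elements would be missed. HSP17.4, which held 2 elements of 3 units, had 0 counts in NT and 0 to 12 at ZT 2.

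Against DMSO, no heat response gene was called with any chemical, as 0% of all genes were. At an unadjusted p under 0.05 TYR gave 2 of the 13 genes tested, while 3.9% of all genes passed that level. DPI, PI and AEG gave 0 each, with 3.59%, 2.48% and 3.35% of all genes in that order. Those 2 were AT1G07400 and HSP90.1, and 10 of the 13 genes were lower with TYR, with a median of -0.18 against -0.00 over all genes. AT1G07400 had 15, 7 and 11 counts with TYR and 30, 44 and 73 with DMSO (log2 fold change -2.15, unadjusted p = 0.000732, edgeR adjusted p = 0.997). HSP90.1 had 102, 207 and 171 counts with TYR and 203, 524 and 350 with DMSO (-1.17, unadjusted p = 0.000706, edgeR adjusted p = 0.997). The AT1G07400 groups do not overlap, those of HSP90.1 do, and both fail the correction over all genes. How many genes have groups without overlap was not counted. Leaving out a library gave -2.40 to -1.77 for AT1G07400 and -1.45 to -0.77 for HSP90.1, with adjusted p from 0.287 to 1. Set against the other chemicals, TYR also had the lowest means of these 2 genes, and of HSP70 and HSP17.6II. Relative to TYR, AT1G07400 was 1.78 higher with DPI, 2.47 with PI and 2.29 with AEG, and HSP90.1 was 0.86, 1.23 and 1.22 higher on the log2 scale, with edgeR adjusted p from 0.49 to 0.752. HSP70 was 0.49, 0.71 and 0.80 higher than with TYR in the same order, and HSP17.6II (2 to 7 counts with TYR) 1.18, 2.13 and 2.25 higher. Their edgeR adjusted p ran from 0.71 to 0.841. Of the 13 genes, 9 were higher and 4 lower with DPI than with TYR, 10 and 3 with PI, and 12 and 1 with AEG. The list medians were 0.18, 0.30 and 0.26 in that order, against -0.00 over all genes in each. The shares of all genes higher and lower were not counted, so nothing is read from these directions. These comparisons share the TYR libraries. HSFA2 itself differed between these groups by 0.06 to 0.48, as given above.

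Genes known to act before HSFA2 made a list of 11, of which 5 were in the table and 3 were tested. HSC70-1, the constitutive chaperone that holds heat stress factors in check, had 4217 ± 202 CPM in NT and 6681 ± 953 CPM with DMSO (SD, n = 3), and rose (log2 fold change 0.66, SE 0.13, edgeR adjusted p = 0.000664). The membrane-bound factor gene BZIP28 did not pass (-0.17, SE 0.13, edgeR adjusted p = 0.352). DREB2C had 0 counts in NT and 0 to 10 at ZT 2, and DREB2B at most 4 counts in any library, too few to test.

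Of 9 genes that mark strong light or oxidative stress, 3 were in the table and 2 were tested, and both rose with DMSO (19.6% of all genes were called higher, and nothing is read from the share of 2 genes). ELIP2, an early light-induced protein of the chloroplast, rose by 3.34 (SE 0.36, edgeR adjusted p = 6.47e-07) from 39, 67 and 44 counts to 459, 590 and 422. AOX1A, the mitochondrial alternative oxidase, rose by 1.40 (SE 0.16, edgeR adjusted p = 1.6e-06) from 114, 99 and 108 counts to 205, 329 and 293. The oxidative stress factor gene RRTF1 had 0 counts in NT and at most 10 at ZT 2, too few to test. Of 8 genes of the unfolded protein response in the endoplasmic reticulum, 5 were tested and 2 rose with DMSO, beside the same 19.6% of all genes. They were BIP2, higher by 0.87 (SE 0.13, edgeR adjusted p = 3.29e-05) and CRT1a, higher by 0.55 (SE 0.12, edgeR adjusted p = 0.00119). None of the 18 BIP2 values was whole, so its reads are shared with another feature and its value is uncertain. SDF2 (0.31), BIP3 (0.62) and PDIL1-1 (0.10) did not pass (edgeR adjusted p = 0.0776, 0.615 and 0.664).

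Since HSFA2 varied 5.29-fold among the 15 ZT 2 libraries, the genes that varied most like it were listed, as Spearman's rho of log2 CPM over those libraries for the 7578 genes whose average log2 CPM was 3 or more. These values describe the libraries and carry no test, and all points share a library's depth and composition. The highest was AT4G23050, annotated as a PAS domain protein kinase, with rho 0.88 and Pearson's r 0.78. SR45a, an RNA-binding splicing protein known to respond to strong light, followed with rho 0.82 and r 0.83. The next were AT3G27870, annotated as an E1-E2 type ATPase (rho 0.82, r 0.70), TLP7, a tubby-like protein (rho 0.82, r 0.72), and VOZ1, a transcription factor known to bind phytochrome B (rho 0.81, r 0.79). In all, 50 genes reached a rho of 0.7, and the lowest was -0.89, for the GDSL lipase gene AT4G28780.

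The shared order can be followed in single libraries. AT4G23050 had 152 CPM in AEG replicate 1 and 142 CPM in DPI replicate 2, the libraries in which HSFA2 was highest (35.1 and 32.8 CPM). It had 73.3 CPM in TYR replicate 3 and 76.9 CPM in DPI replicate 3, where HSFA2 was lowest (6.64 and 7.37 CPM). AT4G23050 was lowest in DMSO replicate 1, with 42.6 CPM, where HSFA2 stood at 11.0 CPM. Without TYR replicate 3 and DPI replicate 3, the libraries farthest from the HSFA2 median in log2 CPM, rho was 0.85 for AT4G23050, 0.80 for SR45a, 0.78 for AT3G27870, 0.87 for TLP7 and 0.75 for VOZ1. The choice of the 5 was not stable. Ranking by Pearson's r kept 2 of them among its own top 5, and leaving out 1 library kept between 2 and 5.

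These 5 genes did not share the change at dawn. SR45a had 48.8 ± 0.822 CPM in NT and 150 ± 43.7 CPM with DMSO (SD, n = 3) and rose by 1.63 in log2 (edgeR adjusted p = 5.56e-06). AT4G23050 rose by 1.21 (SE 0.33, edgeR adjusted p = 0.00676), a call lost without DMSO replicate 2 (adjusted p = 0.0551). AT3G27870 was lower, 22.2 ± 2.74 against 37.6 ± 7.76 CPM, a call lost without NT replicate 2 or 3 or any DMSO library (edgeR adjusted p from 0.062 to 0.167). TLP7 and VOZ1 did not pass, except that TLP7 passed as lower without DMSO replicate 3 (-0.60, adjusted p = 0.0407). Likeness to HSFA2 among ZT 2 libraries thus covered genes that were higher, lower or not called at ZT 2.

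Of the 13 heat response genes tested, 12 had a positive rho with HSFA2 over the ZT 2 libraries, with a median of 0.40, while over all ranked genes 50.8% were positive and the median was 0.01. The highest were HSP17.6II (0.68), AT1G07400 (0.64), HSP90.1 (0.48) and GolS2 (0.46). ROF1 (0.05) and HSP18.2 (0.01) were near 0 and turned negative when 1 library was left out (lowest -0.11 and -0.13), and CLPB3 had -0.47. HSP17.6II and HSP18.2 were below the level set for the ranked genes. Among the factors HSFA1E had 0.66, HSFA4A 0.36, HSFB2B 0.32, HSFA5 0.11 and HSFA1B 0.07. FSD1 had 0.16 and LOX2, a jasmonate synthesis gene that ran from 3380 to 26309 counts at ZT 2, had 0.34. Without TYR replicate 3 and DPI replicate 3, rho was 0.48 for HSFA1E, 0.09 for HSFA4A, 0.18 for HSFB2B, 0.15 for HSFA5 and -0.28 for HSFA1B. Of the heat response genes named here, HSP17.6II then had 0.69, AT1G07400 0.59, HSP90.1 0.35, GolS2 0.53, ROF1 0.03, HSP18.2 -0.31 and CLPB3 -0.34.

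**Figure D5:**
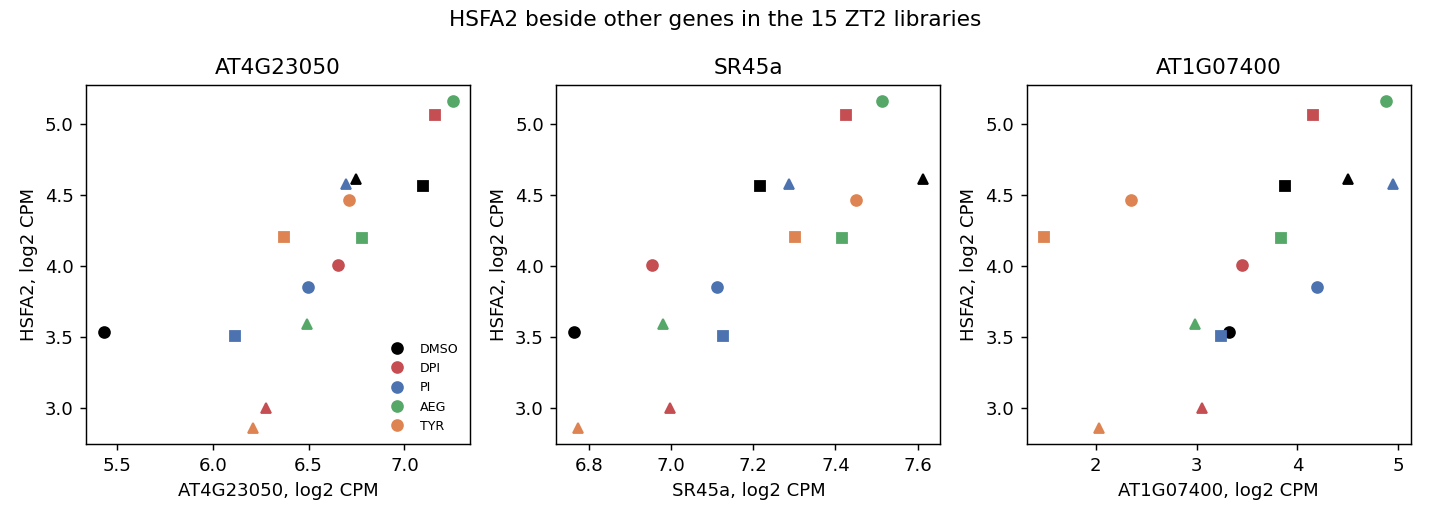
HSFA2 (y axis) against AT4G23050, SR45a and AT1G07400 (x axes), all in log2 CPM, for the 15 ZT 2 libraries. Colour gives the group and the marker the replicate number. For AT1G07400, with rho 0.64, the 3 TYR libraries lie at the left of the plot.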

How the data were processed

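RNA from whole seedlings was poly(A)-selected and sequenced in pairs, per the labels' protocols. HISAT2 2.2.1, RSEM 1.2.22 and TAIR10 are named in the submitters' processing notes, with no role stated. The authors deposited estimated counts, TPM and FPKM per gene and library, per the file headers. FPKM was used for no result. The kit does not mark strand. Of 29431 lines, 11981 named a gene, and 11437 distinct genes were analysed. Estimated counts, of which 3.59% were not whole, were rounded. Totals per library ran from 3156987 to 3249696, and with the TMM factors given below 1 count was 0.296 to 0.334 CPM. The quasi-likelihood test of edgeR 4.0.16 (R 4.3.3) was fitted over all 18 libraries with TMM factors (0.942 to 1.07) and filterByExpr, leaving 9006 genes, 1 coefficient per group and 12 residual degrees of freedom. Benjamini-Hochberg adjustment ran over all genes tested, with a threshold of 0.05. Alternatives were DESeq2 1.42.0, no TMM, other count filters, the compared groups alone, a replicate block and leaving out each library. Log2 CPM used a prior count of 2. The procedure was tested on simulated data.

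Promoter windows came from RefSeq TAIR10.1. The table gives no coordinates. HSFA2, the lists and the tests were chosen with earlier results of these data known. Named genes are the heat stress factors, list members called with DMSO or the 4 largest of a list, the 5 most like HSFA2, its neighbours in DMSO level among genes near 0 in NT, FSD1 and LOX2. ATGA2OX1, AT4G28780, ftsh4 and other list members were named after their values were seen. Replicate numbers were not used to pair the samples in the main fit. The values of 1 list gene are not reported here.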

Additional observations from a re-analysis of the deposited data

How the results depend on the processing

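HSFA2 had no called difference between media under any alternative (adjusted p at least 0.637), and its label permutation p stayed between 0.68 and 0.991. Its signs depended on single libraries. Leaving out 1 library gave -0.743 to 0.324 for DPI against DMSO (sign turned without DMSO replicate 2 or 3 or DPI replicate 1 or 3), -0.402 to 0.451 for AEG against DMSO (AEG replicate 1 or DMSO replicate 1) and -0.649 to 0.031 for TYR against DMSO (TYR replicate 3). It gave -0.469 to 0.601 for DPI against PI (DPI replicate 2), -0.895 to 0.352 for DPI against AEG (DPI replicate 3 or AEG replicate 1) and -0.419 to 0.648 for DPI against TYR (DPI replicate 2 or TYR replicate 3). It gave -0.804 to 0.128 for PI against AEG (AEG replicate 1), -0.327 to 0.374 for PI against TYR (PI replicate 3 or TYR replicate 3) and -0.0785 to 0.801 for AEG against TYR (AEG replicate 1). In the ZT 2 libraries low in FSD1, a choice made after seeing the data, AEG against DMSO was -0.684, DPI against AEG 0.475, PI against AEG 0.226, PI against TYR -0.208 and AEG against TYR -0.433. These fits leave each ZT 2 group with 2 libraries. Without TMM, PI against TYR was -0.0314. The cause was not tested.

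At a log2 fold change of at least 1 in size, DMSO against NT kept 1318 of 3204 genes, the other factors called fell to 1 (DMSO), 0 (DPI) and 0 (PI), and the heat response genes called lower to 1 (DPI) and 0 (PI, AEG and TYR). The genes called lower also fell to 0 for PI and AEG with DESeq2, with a filter of 1 count in any library and in the libraries low in FSD1, which left 1 for DPI. Leaving out 1 library gave 0 to 1 genes lower for DMSO, PI, AEG and TYR, 1 to 2 for DPI, and 1 to 3 factors called for DPI. PDIL1-1 ran from -0.135 to 0.243 and VOZ1 from -0.115 to 0.0865, with 0.0841 in the libraries low in FSD1.

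Same-numbered libraries did not deviate together on average (mean correlation 0.008, 0 of 15 group pairs with every correlation over 0.1, and 6 of 18 libraries closest to one of their own number). The ZT 2 libraries high in FSD1 were replicate 1 of DMSO, DPI, PI and AEG, but replicate 3 of TYR. The cause was not tested. With the replicate block, DMSO against NT called 3102 genes and 9 heat response genes higher, GolS2 lost its call (adjusted p = 0.0685), no heat response gene was lower for PI or AEG (0 each), and the HSFA2 differences from DMSO were -0.15 (DPI), -0.24 (PI), 0.09 (AEG) and -0.41 (TYR).

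With 3 libraries a group, changes of HSFA2 within the 95% intervals given are compatible with these data.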
